A study of Mus musculus with 16 samples.

Results

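Myosin heavy chain is the motor protein of the muscle thick filament, and the isoform that a myofiber makes sets how fast it contracts and gives the fiber its type. The 7 genes described here encode the isoforms of limb muscle. Myh4 encodes the 2B isoform of the fastest fibers, Myh1 the 2X isoform, Myh2 the 2A isoform of fast oxidative fibers, and Myh7 the slow isoform, which the ventricle of the heart also uses. Myh7b encodes a related slow-type myosin, whereas Myh3 and Myh8 encode the embryonic and perinatal isoforms, which adult fibers replace with the adult ones and which regenerating fibers make again. The genes were chosen by symbol, and each was found once among the 47643 genes of the expression table. Beside its level, each isoform is given as its share of the summed level of the 7 genes in each sample, a proportion that does not depend on how the sample was scaled.

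RNA was sequenced from tibialis anterior, a fast muscle of the lower hindlimb, of 16 mice, 4 of each genotype (WT and UBR4 mKO) at 6 months of age and 4 of each at 24 months. The labels give all mice as male C57BL6/J. In UBR4 mKO mice both Ubr4 alleles are floxed, and a Cre that tamoxifen activates is driven by the ACTA1 promoter, which is active in skeletal muscle fibers and not in the other cells of the muscle. WT mice are siblings with the same floxed alleles but no Cre, and mice of both genotypes received tamoxifen, so all 4 groups share the floxed background and the drug. UBR4 is a large ubiquitin ligase, and the comparisons ask how its loss from myofibers, age, and both together bear on muscle RNA. Levels are in TPM, a unit that divides reads by transcript length and scales each sample to a sum of 1000000, so levels of different genes can be compared but the number of reads behind them is unknown.

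Of the 7 genes, 5 lie head to tail on the plus strand of chromosome 11 (GRCm38 coordinates, GENCODE annotation) in the order Myh3 (67078300 to 67102291), Myh2 (67171027 to 67197517), Myh1 (67200052 to 67224575), Myh4 (67238029 to 67260446) and Myh8 (67277124 to 67308634). Myh7 lies on the minus strand of chromosome 14 (54970684 to 54994626) and Myh7b on the plus strand of chromosome 2 (155611212 to 155634307). The coding sequences are close copies of each other. Myh1 and Myh2 were identical at 91.0% of aligned coding bases, Myh4 and Myh1 at 90.1%, and Myh4 and Myh2 at 88.2%, whereas Myh7b matched none of the 3 at more than 69.3%. To show what tells the abundant isoforms apart, the gap-free stretch of 60 coding bases in which Myh4, Myh1 and Myh2 differ most is printed, with the 25 positions at which they are not all equal in capitals. Position 1 is the first base of the start codon, and the stretch begins at base 3842 of the Myh4 coding sequence and at base 3851 of the other two.

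Myh4: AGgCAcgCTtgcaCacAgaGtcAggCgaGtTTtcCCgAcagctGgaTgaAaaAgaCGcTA
Myh1: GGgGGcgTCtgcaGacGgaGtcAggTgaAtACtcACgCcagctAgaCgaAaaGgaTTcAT
Myh2: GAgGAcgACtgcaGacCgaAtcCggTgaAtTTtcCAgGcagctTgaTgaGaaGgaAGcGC

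Such differences were frequent enough that most reads of the stated length can be placed. Of all 100-base windows of the transcript, 96.1% were found in no other gene for Myh4, 85.3% for Myh1, 88.8% for Myh2, 93.4% for Myh8, 98.9% for Myh3 and 100% for Myh7b. For Myh7 the figure was 86.1%, and the gene it shared most windows with was Myh6, the fast cardiac isoform. With 50-base windows, the shortest reads kept, the figures fell to 81.1% for Myh4, 67.9% for Myh1 and 71.1% for Myh2. For Myh3 the 50-base figure was 95.2%, with windows shared with Myh1, Myh2, Myh4, Myh8 and Myh13. How reads that match several genes were divided is not stated. A small part of each abundant isoform's reads could therefore have been credited to a neighbor, and the low values of Myh7, Myh8 and Myh3 are uncertain in this respect.

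The promoters of the 3 abundant isoforms are shown because the results turn on the balance between these genes. RefSeq promoters on GRCm38.p6 were matched for all 7 genes. The 250 bases before the start site are printed on the plus strand for Myh4 (chr11:67237562-67237811), Myh1 (chr11:67199852-67200101) and Myh2 (chr11:67170777-67171026). Capitals mark the longest run of letters common to the 3 promoters.

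Myh4: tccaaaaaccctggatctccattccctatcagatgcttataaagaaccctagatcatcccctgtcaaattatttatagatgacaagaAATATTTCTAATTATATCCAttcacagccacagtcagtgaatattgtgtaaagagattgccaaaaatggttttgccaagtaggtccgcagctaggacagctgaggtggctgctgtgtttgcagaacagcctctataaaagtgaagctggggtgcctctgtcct
Myh1: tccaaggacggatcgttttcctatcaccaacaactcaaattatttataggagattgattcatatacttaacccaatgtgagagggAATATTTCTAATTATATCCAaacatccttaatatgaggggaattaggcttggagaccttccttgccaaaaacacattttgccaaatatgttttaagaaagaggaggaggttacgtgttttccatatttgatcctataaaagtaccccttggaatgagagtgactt
Myh2: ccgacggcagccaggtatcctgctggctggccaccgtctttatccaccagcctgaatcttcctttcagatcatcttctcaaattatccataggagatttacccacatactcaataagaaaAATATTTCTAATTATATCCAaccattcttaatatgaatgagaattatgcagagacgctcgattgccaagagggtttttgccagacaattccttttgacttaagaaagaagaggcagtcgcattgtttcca

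The common run, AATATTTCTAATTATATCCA, is 20 bases long and ends 143 bases before the start site in Myh4, 145 in Myh1 and 110 in Myh2. Of 32851 RefSeq promoters of 300 bases, searched on both strands, 3 held it (0.00913%), namely these. The AT-rich sequence TATTTATAG, which is one form of the binding site of the muscle factor MEF2, was found in the promoters of Myh4, Myh1 and Myh8 and in 0.451% of all promoters, and in Myh4 and Myh1 it does not overlap the common run.

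Before the isoforms are compared, 4 properties of the samples need to be given. Ubr4, the targeted gene, was lower in every UBR4 mKO sample than in every WT sample of its age, with 4.91 to 6.54 against 9.09 to 15.7 TPM at 6 months and 4.28 to 14.6 against 17.0 to 21.1 TPM at 24 months. Xist, the RNA of the inactive X chromosome of female cells, was listed at 2.91 to 13.0 TPM in 6-month WT and 0.711 to 23.8 TPM in 6-month UBR4 mKO samples but at no more than 0.0252 TPM at 24 months, although all mice are labelled male. The summed TPM of the Y-linked genes Ddx3y, Uty, Kdm5d and Eif2s3y was 4.36 to 25.5 in 6-month WT and 0.181 to 45.9 in 6-month UBR4 mKO samples, against 34.6 to 59.6 at 24 months. The labels do not mention pooled animals, and this difference between the ages cannot be told apart from age. Results are therefore also given with the Y-linked sum as a covariate and without the 4 6-month samples over 5 TPM of Xist (2 WT, 2 UBR4 mKO), both added after the data were seen. The genes of the mitochondrial genome took 52.6% to 59.7% of all TPM in 6-month WT samples, above the 46.1% to 49.8% of 6-month UBR4 mKO and the 46.3% to 51.7% of 24-month samples. Finally, the median gene was 0.33 higher on the log2 scale in UBR4 mKO than in WT muscles at 6 months and 0.26 higher at 24 than at 6 months in WT, whereas it differed by 0.013 between the genotypes at 24 months and by -0.043 between the ages in UBR4 mKO. With TPM rescaled without the mitochondrial genes, the first of these shifts was 0.089 and the second 0.080. Each difference in level is best read against that shift. The 7 defining markers of skeletal muscle (Acta1, Ckm, Des, Mb, Pygm, Casq1, Ryr1) summed to at least 40117 TPM in every sample.

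The family took up 1.10% of all TPM in 6-month WT, 1.38% in 6-month UBR4 mKO, 1.47% in 24-month WT and 1.35% in 24-month UBR4 mKO muscles, and Myh4, Myh1 and Myh2 together made at least 99.9% of it in every sample. Myh4 ranked number 20 of all genes by mean TPM, Myh1 29 and Myh2 206. The remaining 4 were near 1 TPM, with means over the 16 samples of 2.19 for Myh3, 1.03 for Myh7, 0.911 for Myh7b and 0.890 for Myh8. All 7 were above 0 in every sample. The order Myh4 above Myh1 above Myh2 held in all 16 samples, and Myh4 exceeded Myh2 by 8.58 to 126 times.

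**Figure D1:**
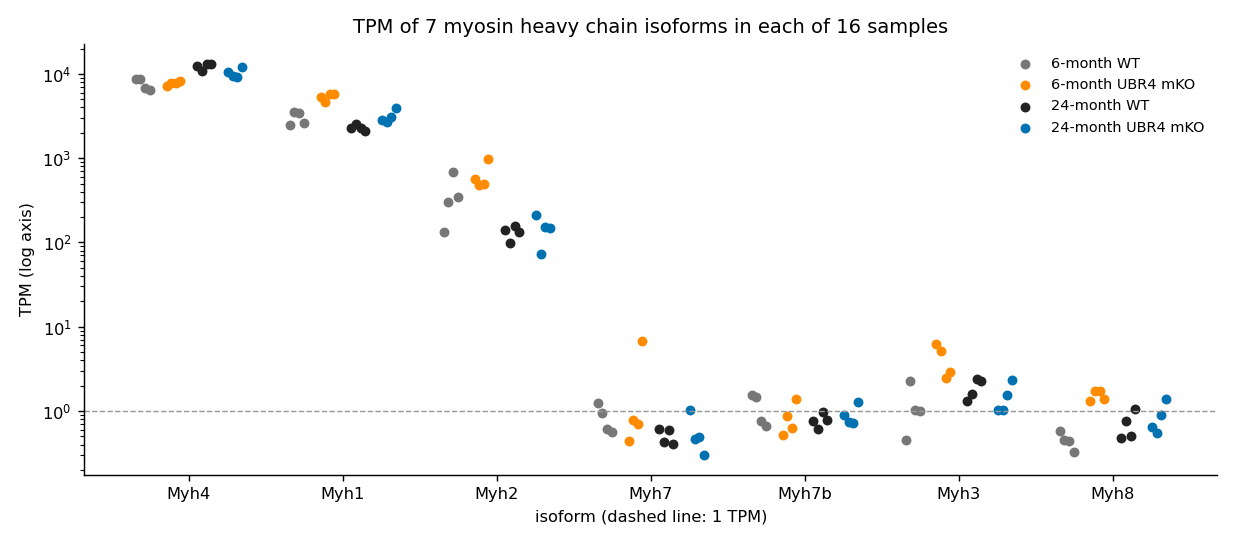
TPM of each isoform on a log axis, 1 point per sample and 1 color per group, 4 samples per group; the dashed line is 1 TPM. Myh4, Myh1 and Myh2 lie between 73.7 and 13263 TPM, and the other 4 isoforms between 0.299 and 6.83 TPM.

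Genes with a mean of at least 1 TPM over the 16 samples were tested with limma on log2(TPM + 0.1), all 10628 of them together, and a gene is called when its Benjamini-Hochberg adjusted p is under 0.05. Of the isoforms, 5 passed this filter. Myh7 did so through a single sample, since its mean was 0.642 TPM without UBR4 mKO sample 4 of 6 months, and Myh7b and Myh8 did not pass. For the shares, all 70 ways to divide 8 samples into 2 groups of 4 were enumerated (exact permutation test, two-sided), and 0.0286 is the smallest p this design allows. In all 35 share tests were run (7 isoforms in 5 comparisons), their p values are unadjusted, and the shares of a sample are not independent because they sum to 100%.

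At 6 months, UBR4 mKO muscles had more 2X myosin RNA and a smaller share of 2B than WT muscles. Myh1 was at 2509, 3504, 3401 and 2643 TPM in the WT samples and at 5371, 4633, 5730 and 5698 TPM in the UBR4 mKO samples, so the groups did not overlap, as was the case for 39.9% of all genes tested at this age (39.0% higher). Its log2 fold change was 0.84 (SE 0.12, limma adjusted p = 0.000202), against 0.33 for the median gene. Myh4 was at 8623, 8710, 6829.5 and 6407 TPM in WT and at 7141, 7887, 7773 and 8336 TPM in UBR4 mKO muscles. The Myh4 groups overlapped, with a log2 fold change of 0.04 (SE 0.11, limma adjusted p = 0.772) that lay below that of the median gene. After median-of-ratios scaling, which divides each sample by its typical ratio to the mean of all samples, the log2 fold change of Myh4 became -0.32 (adjusted p = 0.0332) and that of Myh1 0.49 (adjusted p = 0.0154), so a direction for the level of Myh4 depends on the scaling and its share does not.

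As shares, Myh4 made up 76.5%, 69.5%, 62.6% and 68.2% of the family in 6-month WT samples and 54.6%, 60.6%, 55.5% and 55.5% in UBR4 mKO samples. That is a mean of 69.2% ± 5.73 against 56.6% ± 2.74 (SD, n = 4 each), a difference of -12.6 percentage points with no overlap (exact permutation test, p = 0.0286). The share of Myh1 was 27.4% ± 3.71 in WT and 38.9% ± 2.62 in UBR4 mKO muscles (SD, n = 4 each), 11.5 percentage points higher and again without overlap (exact permutation test, p = 0.0286). Put as a ratio, there were 0.401 ± 0.0849 Myh1 transcripts for each Myh4 transcript in WT and 0.690 ± 0.0745 in UBR4 mKO muscles (SD, n = 4 each). Without the samples over 5 TPM of Xist, the mean shares were 72.3% against 55.0% for Myh4 and 25.2% against 41.0% for Myh1, with 2 samples a group and no test. The log2 fold change of Myh1 was 0.86 with the Y-linked covariate and 1.11 without those samples, and it was called in both fits.

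Myh2, the 2A isoform, varied more between mice of a group than the other abundant isoforms did. It was at 134, 305, 681 and 347 TPM in 6-month WT and at 565, 484, 490 and 972 TPM in 6-month UBR4 mKO samples. The groups overlapped, since WT sample 3 lay above 3 of the UBR4 mKO samples. The log2 fold change was 0.94 (SE 0.38) and was not called (limma adjusted p = 0.0547). It passed the threshold with the Y-linked covariate (1.36, adjusted p = 0.0186), without the samples over 5 TPM of Xist (1.29, adjusted p = 0.0494), with sample weights (1.41, adjusted p = 0.00251) and without WT sample 3 (1.31, adjusted p = 0.0113), but not after median-of-ratios scaling (0.58, adjusted p = 0.338). Leaving out UBR4 mKO sample 1, 2 or 3 of 24 months also brought its adjusted p under the threshold, at 0.0486, 0.0415 and 0.0494, with the fold change the same. As a share, Myh2 was 3.39% ± 2.16 in WT and 4.50% ± 1.36 in UBR4 mKO muscles (SD, n = 4 each; exact permutation test, p = 0.371). The difference was 0.380 percentage points without WT sample 1 and 2.06 without WT sample 3.

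The 6-month samples with the most Myh2 were also those with the least Y-linked RNA. UBR4 mKO sample 4 had 972 TPM of Myh2, 0.181 TPM of Y-linked RNA and 23.8 TPM of Xist, the highest Xist value of the series. WT sample 3 had 681 TPM of Myh2 and 4.36 TPM of Y-linked RNA. In 6-month WT, the sample with the most Y-linked RNA (25.5 TPM) had the least Myh2 (134 TPM). In 6-month UBR4 mKO muscles this order did not hold throughout, since sample 1, with the most Y-linked RNA (45.9 TPM), had more Myh2 (565 TPM) than samples 2 and 3. The part of these differences in the spread of Myh2 was not tested.

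**Figure D2:**
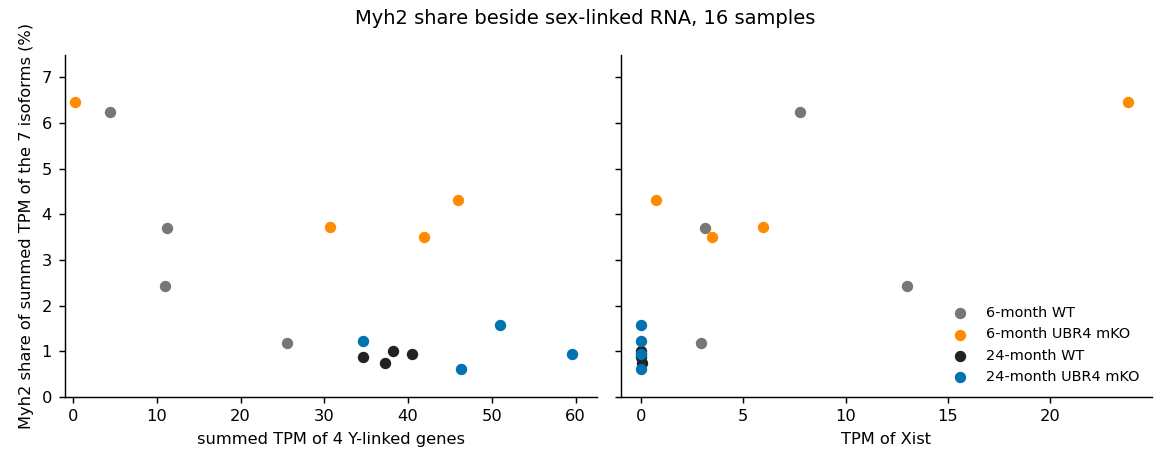
Myh2 share of the summed TPM of the 7 isoforms (y, %) against the summed TPM of 4 Y-linked genes (left) and the TPM of Xist (right), 1 point per sample, colored by group. The highest Myh2 shares, 6.47% and 6.24%, belong to the 6-month samples with Y-linked sums of 0.181 and 4.36 TPM, and all 24-month samples lie at or below 1.57%.

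Of the isoforms made by developing and regenerating fibers, both were higher in UBR4 mKO muscles at 6 months, from low levels. Myh3 was at 0.452, 2.26, 1.02 and 1.00 TPM in WT and at 6.26, 5.11, 2.45 and 2.92 TPM in UBR4 mKO samples. The groups did not overlap, and the log2 fold change was 1.83 (SE 0.38, limma adjusted p = 0.00217). It was called in all 29 other fits that tested it, from 1.24 to 2.62. Myh8 was at 0.571, 0.451, 0.440 and 0.325 TPM in WT and at 1.32, 1.74, 1.74 and 1.39 TPM in UBR4 mKO samples, again without overlap. Its share was 0.00404% of the family in WT and 0.0113% in UBR4 mKO muscles (exact permutation test, p = 0.0286), and in the fit without a filter its log2 fold change was 1.60 (SE 0.27, limma adjusted p = 0.00142). The share of Myh3 was 0.0105% in WT and 0.0310% in UBR4 mKO muscles, with overlap (exact permutation test, p = 0.0571).

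Of the slow isoforms, Myh7 was at 1.25, 0.946, 0.608 and 0.562 TPM in 6-month WT and at 0.440, 0.790, 0.704 and 6.83 TPM in UBR4 mKO samples. The last value stands apart from the rest of the series, and it belongs to the sample with the most Xist and Myh2. The log2 fold change of 0.50 (SE 0.57, limma adjusted p = 0.454) became -0.31 without that sample. Myh7b, at 0.514 to 1.54 TPM in these 8 samples, overlapped between the genotypes.

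In total, 2 of the 5 tested isoforms were called at 6 months, Myh1 and Myh3, against 44.9% of all genes tested (43.7% higher and 1.15% lower, but 708 and 1082 genes after median-of-ratios scaling), so the number of isoforms called is near the background of that comparison. Of the 7 shares, 3 had a p under 0.05 (Myh4, Myh1 and Myh8), for which there is no counterpart over all genes. Because TPM shifted for most genes at this age, the shares are the measure of the isoforms that the shift leaves untouched.

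**Figure D3:**
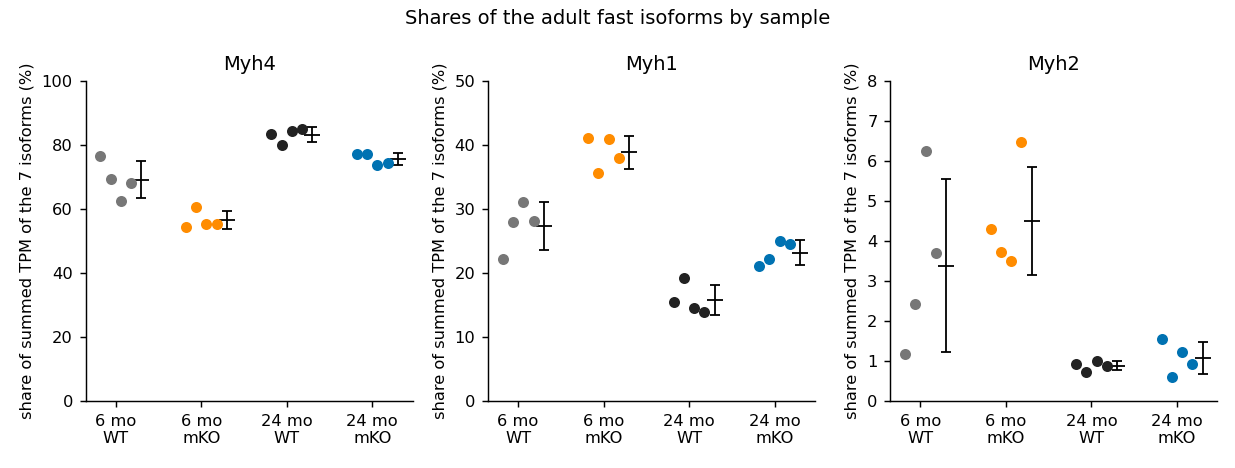
Share of the summed TPM of the 7 isoforms (y, %, from 0, with its own range in each panel) for Myh4, Myh1 and Myh2 in the 4 groups; points are samples, and the bar beside them is the mean with its SD (n = 4). At both ages the UBR4 mKO samples lie below WT for Myh4 and above WT for Myh1 without overlap, and Myh2 overlaps between genotypes.

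At 24 months Myh4 and Myh1 again differed between the genotypes as shares, and no isoform was called by its level. Myh4 was at 12271, 10702, 13263 and 12956 TPM in WT and at 10522, 9327, 9107 and 11917 TPM in UBR4 mKO samples, which overlapped, with a log2 fold change of -0.27 (SE 0.11, limma adjusted p = 0.363). Myh1 was at 2271, 2568, 2301 and 2123 TPM in WT and at 2869, 2683, 3094 and 3935 TPM in UBR4 mKO samples. Here the lowest UBR4 mKO sample exceeded the highest WT sample, with a log2 fold change of 0.43 (SE 0.12, limma adjusted p = 0.158). At this age the groups did not overlap for 5.8% of all genes, 4.29% with UBR4 mKO higher and 1.51% with it lower. The share of Myh4 was 83.6%, 80.0%, 84.3% and 85.1% in WT samples and 77.3%, 77.2%, 73.7% and 74.5% in UBR4 mKO samples, with means of 83.3% ± 2.25 and 75.7% ± 1.86 (SD, n = 4 each; exact permutation test, p = 0.0286). That of Myh1 was 15.8% ± 2.34 in WT and 23.2% ± 1.90 in UBR4 mKO muscles (SD, n = 4 each; exact permutation test, p = 0.0286), and there were 0.191 ± 0.0340 and 0.308 ± 0.0325 Myh1 transcripts for each Myh4 transcript.

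Here the direction was that of the 6-month muscles, with -7.61 percentage points for Myh4 and 7.41 for Myh1. The genotype differences at 24 and at 6 months were 5.04 percentage points apart for Myh4 (SE 3.50, n = 4 per group) and -4.09 for Myh1 (SE 2.73). These are given without a test, because a reassignment of ages within genotypes also responds to the age differences themselves. Without WT sample 1 of 6 months these were 2.60 and -2.38, the values farthest from them with 1 sample left out. Myh2 was at 139, 98.1, 158 and 133 TPM in 24-month WT and at 214, 73.7, 152 and 148 TPM in 24-month UBR4 mKO samples. Its groups overlapped, with shares of 0.889% ± 0.118 and 1.08% ± 0.411 (SD, n = 4 each; exact permutation test, p = 0.457). Myh3 was at 1.31, 1.59, 2.42 and 2.30 TPM in WT and at 1.03, 1.04, 1.57 and 2.32 TPM in UBR4 mKO samples, and Myh8 at 0.472, 0.753, 0.510 and 1.05 TPM against 0.649, 0.547, 0.908 and 1.38 TPM, so that neither developmental isoform was separated by genotype at this age.

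By limma, 0 of the 5 tested isoforms were called at 24 months, against 0.63% of all genes, 2 had an unadjusted p under 0.05 (Myh1 and Myh4), and Dunn's test called 0. The adjusted p of Myh1 ranged from 0.0768 to 0.959 over the alternatives. Beside these values stand the sum of the leukocyte markers, which did not overlap between the genotypes, and that of the adipocyte markers, which did. As single genes, Lyz2 and Cd68 did not overlap, whereas Ptprc, Adgre1, Csf1r, Cd3e and Cd79a did. The 7 leukocyte markers summed to 66.1 to 284 TPM in 24-month UBR4 mKO against 26.6 to 55.1 TPM in 24-month WT samples, and the 5 adipocyte markers to 11.0 to 70.2 against 7.59 to 19.5 TPM. Their part in the isoform values was not tested.

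With age, WT muscles held more 2B and less 2X and 2A myosin RNA. Myh4 rose from 7642 ± 1196 to 12298 ± 1142 TPM (SD, n = 4 each), without overlap, with a log2 fold change of 0.69 (SE 0.11, limma adjusted p = 0.000443) against 0.26 for the median gene. Groups without overlap were found for 24.1% of all genes with the 24-month samples higher and for 1.83% with them lower (25.9% in all). Myh2 fell from 367 ± 229 to 132 ± 25.1 TPM (SD, n = 4 each), which is a log2 change of -1.27 (SE 0.38, limma adjusted p = 0.0264), although the lowest 6-month sample, 134 TPM, lay within the range of the 24-month samples. Myh1 fell from 3014 ± 511 to 2315 ± 185 TPM (SD, n = 4 each), which is a log2 change of -0.37 (SE 0.12, limma adjusted p = 0.0390), with overlap. As shares, Myh4 was 14.1 percentage points higher, Myh1 -11.6 and Myh2 -2.50 percentage points apart, each without overlap (exact permutation test, p = 0.0286). Without WT sample 3 of 6 months the difference of the Myh2 share was -1.55 percentage points.

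Myh7 and Myh7b also took smaller shares at 24 months in WT, 0.00344% against 0.00755% and 0.00527% against 0.00983% (exact permutation test, p = 0.0286 for each), whereas the shares of Myh3 and Myh8 overlapped. The sum of the family was higher at 24 than at 6 months in WT (14749 against 11027 TPM), and as a level Myh7 overlapped between the ages (exact permutation test, p = 0.114) and was not called (-0.59, limma adjusted p = 0.409), with 0.63 in place of -0.59 under the Y-linked covariate. Of the 5 tested isoforms, 3 were called (Myh4 higher, Myh1 and Myh2 lower), against 25.1% of all genes, of which 24.0% were higher and 1.07% lower (472 genes higher and 566 lower after median-of-ratios scaling). The call of Myh4 held with the Y-linked covariate (0.65, adjusted p = 0.0144) and without the samples over 5 TPM of Xist (0.72, adjusted p = 0.00869). Those of the isoforms that fell did not. With the covariate, Myh1 was at -0.34 (adjusted p = 0.169) and Myh2 at -0.64 (adjusted p = 0.323), and without those samples they were at -0.16 (adjusted p = 0.324) and -0.73 (adjusted p = 0.143). Myh1 also missed the threshold without WT sample 2, 3 or 4 of 6 months (-0.29, -0.30 and -0.43) or WT sample 1, 3 or 4 of 24 months (-0.36, -0.37 and -0.33). Myh2 did so without WT sample 3 or 4 of 6 months (-0.90 and -1.22) or WT sample 1, 2 or 4 of 24 months (-1.30, -1.13 and -1.28).

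In UBR4 mKO muscles Myh4 again rose with age, and Myh1 and Myh2 fell. Myh2 went from 628 ± 232 to 147 ± 57.3 TPM (SD, n = 4 each), which is a log2 change of -2.13 (SE 0.38, limma adjusted p = 0.00274), without overlap. Myh1 fell from 5358 ± 510 to 3145 ± 553 TPM (SD, n = 4 each), which is a log2 change of -0.78 (SE 0.12, limma adjusted p = 0.00102), also without overlap. Both calls held with the Y-linked covariate (-1.66 and -0.76) and without the samples over 5 TPM of Xist (-1.94 and -0.83). Myh4 rose from 7784 ± 493 to 10218 ± 1292 TPM (SD, n = 4 each), with a log2 fold change of 0.39 (SE 0.11, limma adjusted p = 0.0395) and no overlap. Of all genes, 4.43% were higher and 8.49% lower with age without overlap (12.9% in all). In shares, Myh4 was 19.1 percentage points higher, Myh1 -15.7 and Myh2 -3.42 percentage points apart (exact permutation test, p = 0.0286 for each).

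Myh3 fell from 4.19 ± 1.81 to 1.49 ± 0.608 TPM (SD, n = 4 each), which is a log2 change of -1.41 (SE 0.38, limma adjusted p = 0.0367), so 4 of the 5 tested isoforms were called with age in UBR4 mKO muscles, against 6.29% of all genes (2.45% higher and 3.85% lower, or 634 and 563 genes after median-of-ratios scaling). The share of Myh8 was 0.0113% at 6 and 0.00632% at 24 months (exact permutation test, p = 0.0286). The calls of Myh4 and Myh3 were lost without some single samples. Myh4 missed the threshold with the Y-linked covariate (0.35, adjusted p = 0.134), without the samples over 5 TPM of Xist (0.45, adjusted p = 0.114), without UBR4 mKO sample 1, 2 or 3 of 6 months (0.35, 0.39 and 0.39), without UBR4 mKO sample 1 or 4 of 24 months (0.37 and 0.31) and without WT sample 1 of 24 months (0.39), which enters through the shared spread. Myh3 did so with the covariate (-1.44, adjusted p = 0.0863), without the samples over 5 TPM of Xist (-1.42, adjusted p = 0.105), without UBR4 mKO sample 1 or 2 of 6 months (-1.18 and -1.28) and without UBR4 mKO sample 1 or 2 of 24 months (-1.26 and -1.27). The 2 age comparisons and the 2 genotype comparisons share their groups and are not independent of each other.

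**Figure D4:**
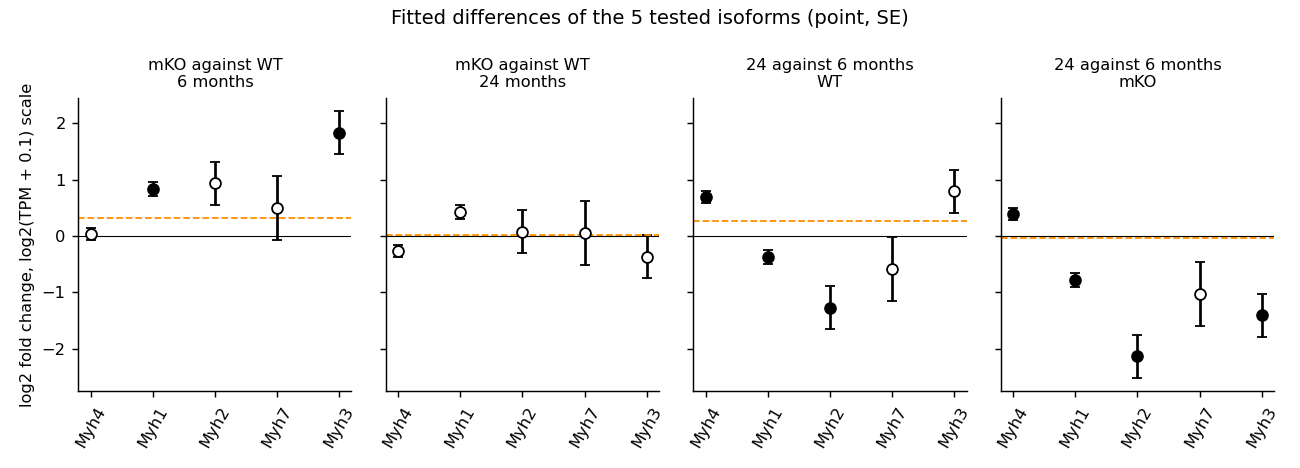
Log2 fold change with its SE (limma, log2(TPM + 0.1) scale) of the 5 tested isoforms in the 4 comparisons; filled points are called (adjusted p under 0.05), open points are not, and the dashed line is the median of all 10628 genes. Myh4 lies below the dashed line and Myh1 above it in both genotype comparisons, and the reverse holds in both age comparisons.

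The interaction of genotype and age was called for 1 of the 5 tested isoforms, Myh3, against 4.7% of all genes (487 lower and 13 higher, or 103 and 108 after median-of-ratios scaling), with a log2 value of -2.20 (SE 0.54, limma adjusted p = 0.0318). Myh3 was 1.83 higher in UBR4 mKO than in WT muscles at 6 months and -0.37 apart at 24 months. The median gene had an interaction of -0.31, and after median-of-ratios scaling the value of Myh3 was -1.89 (adjusted p = 0.0876). It was also not called without WT sample 1, 3 or 4 of 6 months (-1.86, -2.19 and -2.19), UBR4 mKO sample 1 or 2 of 6 months (-1.97 and -2.07), WT sample 3 or 4 of 24 months (-2.07 and -2.10) or UBR4 mKO sample 2 of 24 months (-2.06). As shares, given without a test, Myh3 and Myh8 had interactions of -0.0225 (SE 0.00831) and -0.00567 (SE 0.00171) percentage points and Myh7b one of 0.00510 (SE 0.00215), all on less than 0.1% of the family.

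Ordered by mean TPM, the 4 groups fell into different orders for each abundant isoform. For Myh4 the 24-month groups came first (WT, then UBR4 mKO, with overlap and p = 0.0571 by the exact permutation test), and the 6-month groups followed (UBR4 mKO, then WT, p = 0.886). For Myh1, 6-month UBR4 mKO stood above the rest without overlap, and 24-month UBR4 mKO, 6-month WT and 24-month WT followed with neighbors that overlapped (exact permutation test, p = 0.771 and 0.0571). For Myh2 the order was 6-month UBR4 mKO, 6-month WT, 24-month UBR4 mKO and 24-month WT, and all neighbors overlapped. Myh3 and Myh8 were highest in 6-month UBR4 mKO muscles and lowest in 6-month WT muscles. Of their neighbors, 6-month UBR4 mKO stood apart from the next group for Myh3 but overlapped it for Myh8 (exact permutation test, p = 0.0571), and 6-month WT overlapped the next group for each (p = 0.457 and 0.143). The neighbors of Myh7 and of Myh7b in their orders all overlapped.

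RNAs that overlap or lie between these genes were measured as well. The antisense RNA Myhas, named in the table as Gm12300, runs from within Myh1 to just before Myh4 (67211256 to 67237573, minus strand). It was at 29.2 ± 5.86 TPM in 6-month WT, 31.7 ± 3.30 in 6-month UBR4 mKO, 30.7 ± 4.67 in 24-month WT and 25.5 ± 1.11 in 24-month UBR4 mKO muscles (SD, n = 4 each), and it was not called in any comparison, although its UBR4 mKO samples did not overlap between the ages. The antisense RNA 9430073C21Rik at the end of Myh2 was between 2.52 and 3.22 TPM in the group means and was not called either. Since the strand setting of the counting is not stated, their reads cannot be told apart from those of the coding genes where they overlap. Mhrt and Gm29015, antisense to Myh7, are listed at 0 in all samples.

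Between Myh3 and Myh2 on the minus strand lies 2310065F04Rik (67112461 to 67120080), which RefSeq also calls linc-Myh, a long noncoding RNA of fast myofibers. It was chosen after its values had been seen. In 6-month samples it was at 68.7, 55.9, 46.3 and 51.8 TPM in WT and at 25.9, 31.8, 31.6 and 32.0 TPM in UBR4 mKO muscles. In 24-month samples it was at 83.3, 71.6, 82.7 and 75.8 TPM in WT and at 49.8, 47.6, 58.0 and 44.3 TPM in UBR4 mKO muscles, so that the genotypes were separated at both ages.

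Its log2 fold change with UBR4 loss was -0.87 (SE 0.12, limma adjusted p = 9.85e-05) at 6 months, where 1.15% of all genes were called lower, and -0.65 (SE 0.12, limma adjusted p = 0.0215) at 24 months, where 0.198% were. With age it was 0.50 in WT (adjusted p = 0.00795, limma), and in UBR4 mKO muscles it was 0.72 (adjusted p = 0.00126, limma). The direction was that of the share of Myh4 in each of these 4 comparisons. This only describes linc-Myh, since it was chosen after its values had been seen. The 24-month call was lost without WT sample 1, 3 or 4 of 24 months (-0.62, -0.63 and -0.67) or UBR4 mKO sample 4 of 24 months (-0.60), and also when only the groups compared were fitted (-0.65). The call with age in WT was lost after median-of-ratios scaling (0.23, adjusted p = 0.330), without mitochondrial genes (0.31, adjusted p = 0.0694) and without the samples over 5 TPM of Xist (0.39, adjusted p = 0.0529), and Dunn's test called linc-Myh in none of the 4 comparisons (adjusted p = 0.106 to 0.959).

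**Figure D5:**
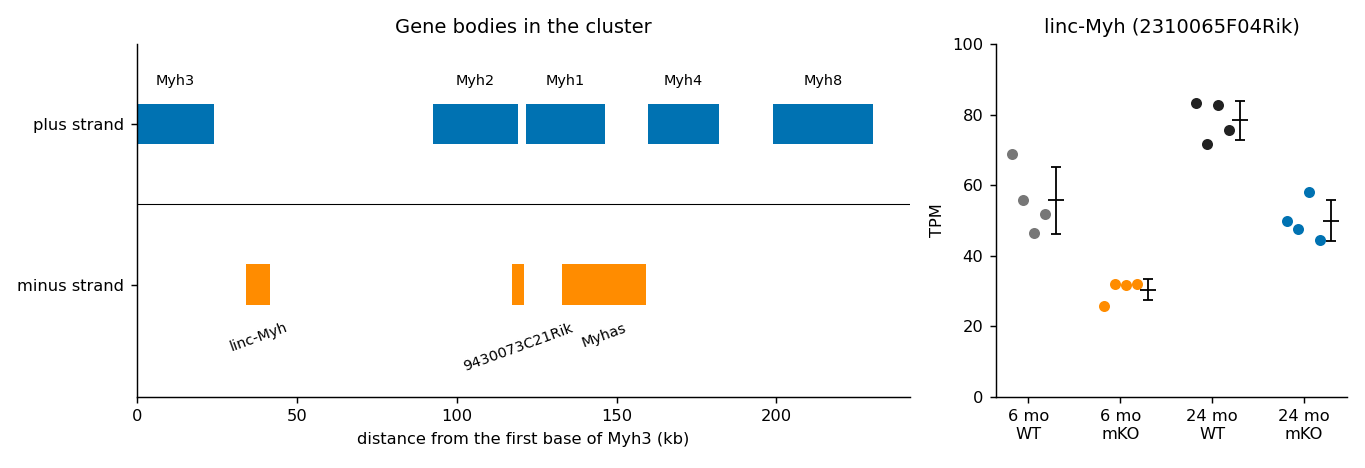
Left, gene bodies of the chromosome 11 cluster by strand, with distance from the first base of Myh3 in kb (x); right, TPM of linc-Myh (2310065F04Rik) from 0, with 1 point per sample and the mean with its SD beside them (n = 4). The UBR4 mKO samples lie at 25.9 to 32.0 TPM at 6 months and 44.3 to 58.0 TPM at 24 months, below the WT samples of the same age.

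A fiber type is also marked by the proteins that work beside myosin, and 3 lists of these partners were examined. At 6 months 43.7% of all genes were called higher in UBR4 mKO muscles, and with age 24.0% were called higher and 1.07% lower in WT and 2.45% higher and 3.85% lower in UBR4 mKO muscles, and the counts of the lists below are to be read against these shares. Among 12 slow sarcomere partners, 4 rose at 6 months in UBR4 mKO muscles, including Tnni1, the slow inhibitory troponin, from 1.52 ± 0.0902 to 4.58 ± 2.08 TPM (SD, n = 4 each), Csrp3, a muscle LIM protein of the Z-disc, with a log2 fold change of 1.30, and Atp2a2, the calcium pump of slow and cardiac muscle, with 0.83. The remaining 8 were not called, and the median of the list, 0.33, was that of all genes. With age in WT, 4 fell and 1 rose. The largest falls were those of Csrp3 (-2.14), Myl2 (-1.84) and Myoz2 (-1.71), of which Myl2 is the slow regulatory light chain and Myoz2 a calcineurin-binding Z-disc protein of slow and cardiac muscle. In UBR4 mKO muscles 4 fell with age, led by Csrp3 (-2.76), Myoz2 (-1.90) and Tnni1 (-1.46). After median-of-ratios scaling 2 rose at 6 months, and 5 fell with age in each genotype. With the Y-linked covariate 2 fell with age in WT and 3 in UBR4 mKO muscles, and the medians of the list were 0.053 and -0.33.

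Of the 13 fast sarcomere partners, 6 rose at 6 months, a share near that of all genes, among them Mylpf, the fast regulatory light chain (0.63), Mybpc2, the fast myosin-binding protein C (0.50), and Casq1, the calsequestrin of fast fibers (0.49), and their median of 0.17 lay below that of all genes. With median-of-ratios scaling 0 rose and 2 fell instead. In WT, 10 rose with age, led by Mybpc2 (0.75), Pvalb, the calcium buffer parvalbumin (0.41, not called without WT sample 3 or 4 of 6 months or sample 1 or 4 of 24 months, 0.34 to 0.39), and Mylpf (0.39), but 1 after median-of-ratios scaling and 4 with the Y-linked covariate. In UBR4 mKO muscles Tnni2 (0.27) and Tnnt3 (0.27), the fast troponins I and T, rose with age and Casq1 fell (-0.47). Tnnt3 was not called without UBR4 mKO sample 1 or 3 of 6 months and Tnni2 not without sample 1, and none of the list was called after that scaling.

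Developmental sarcomere partners moved with Myh3 and Myh8 at 6 months. All 4 tested of 5 rose, the largest being Sln, sarcolipin, which restrains the calcium pump of the sarcoplasmic reticulum, from 4.67 ± 0.402 to 67.3 ± 25.4 TPM (SD, n = 4 each), which is a log2 change of 3.74 (SE 0.32, limma adjusted p = 3.11e-06), and Actc1, the actin of the heart and of developing muscle, from 102 ± 46.9 to 806 ± 515 TPM (SD, n = 4 each), which is a log2 change of 2.69 (SE 0.56, limma adjusted p = 0.00212). Tnnt2, cardiac troponin T, rose by 0.96. With either other scaling and in both fits added after the data were seen, 2 to 4 of the list rose. With age, Sln (1.74) and Myl4 (1.08), the atrial and embryonic light chain, rose in WT, whereas Actc1 (-3.54) and Sln (-1.75) fell in UBR4 mKO muscles. The interaction was called for Actc1 (-3.85), Sln (-3.49) and Myl4 (-1.09), the last not after median-of-ratios scaling (-0.76). Actc1 overlapped between the genotypes at 6 months, because UBR4 mKO sample 4 was at 145 TPM and the other three at 739 to 1380 TPM, against 72.2 to 171 TPM in WT. Without that sample its values were 3.38 at 6 months, -4.24 with age in UBR4 mKO muscles and -4.54 for the interaction.

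Of 14 genes of denervation and regeneration, 10 were tested. Of these, 1 passed the filter only with the help of its highest group, and of the other 9, 8 rose at 6 months in UBR4 mKO muscles and 8 with age in WT. The exception was Runx1, a transcription factor induced by denervation, with group means of 0.215 TPM in 6-month WT, 1.05 TPM in 6-month UBR4 mKO, 1.57 TPM in 24-month WT and 1.23 TPM in 24-month UBR4 mKO muscles, which are given as levels only. Ankrd1, a titin-binding ankyrin repeat protein, rose by 2.17 in each comparison, and Myog, myogenin, which drives myoblast differentiation, by 2.16 and 1.93. Each had an interaction of -2.65. With age in UBR4 mKO muscles 1 rose, Myod1 (0.82), another factor of myogenic differentiation. After median-of-ratios scaling 7 of the 10 rose at 6 months and 6 with age in WT. Runx1 is among these 10, so the counts do not compare directly with those of the other 9.

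Among 27 regulators of myosin genes, 26 were tested, 10 rose at 6 months and 8 with age in WT, both near the shares of all genes, and 1, Myod1, rose with age in UBR4 mKO muscles (3 and 4 with age after median-of-ratios scaling). Beside Myog, the largest rises at 6 months were those of the calcineurin-responsive factors Nfatc2 (0.72) and Nfatc4 (0.58, not called without WT sample 4, 0.47), and with age in WT those of Hdac4 (0.77), a repressor of MEF2, and Rcan1 (0.73), a calcineurin inhibitor. Rcan1 was at 0.44 without WT sample 2 of 24 months and was not called without WT sample 3 or 4 of 6 months (0.69 and 0.68). After median-of-ratios scaling 1 rose and 3 fell at 6 months. Of 12 genes of myosin assembly and turnover, 6 rose at 6 months, again near the share of all genes, led by Myom3, an M-band myomesin (2.32), the chaperone Hsp90aa1 (0.80) and Myom2 (0.72). In WT 6 rose with age, led by Myom3 (1.62) and the atrophy ligases Trim63 (1.03) and Fbxo32 (0.88), neither of them called without WT sample 4 of 6 months (0.88 and 0.75), and in UBR4 mKO muscles Trim54 rose with age (0.47). After median-of-ratios scaling 3 rose and 1 fell at 6 months, 2 rose with age in WT, and 1 rose and 2 fell with age in UBR4 mKO muscles.

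The other myosin heavy chain genes were low in this muscle, and 6 of the 7 were tested. Myh13, the extraocular isoform, fell at 6 months in UBR4 mKO muscles from 2.10 ± 0.451 to 0.999 ± 0.232 TPM (SD, n = 4 each), which is a log2 change of -1.01 (limma adjusted p = 0.00376), and with age in WT (-0.80), the latter not when any of 5 single WT samples was left out. At 6 months the nonmuscle genes Myh14 (0.66) and Myh10 (0.62) were among 3 that rose, Myh14 also rose with age in WT (0.70), and Myh10 fell with age in UBR4 mKO muscles (-0.68), which was not called when any of 9 single samples was left out. After median-of-ratios scaling none rose and 3 fell at 6 months. Myh6, which shares the most sequence with Myh7, was between 0.965 and 1.71 TPM in the group means and was not called. At 24 months, UBR4 mKO against WT, 0 of the 81 tested genes of these 7 lists were called by limma, 7 had an unadjusted p under 0.05, and Dunn's test called 0. In the other comparisons Dunn's test called fewer of them than limma, 22 against 42 at 6 months, 0 against 41 with age in WT and 0 against 12 with age in UBR4 mKO muscles.

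Across the 16 samples, after median-of-ratios scaling, the log2 levels of Myh4 and Myh1 were opposed (Pearson r = -0.89), as were those of Myh4 and Myh2 (r = -0.76), while Myh1 and Myh2 went together (r = 0.82). These are descriptions over samples that fall into 4 groups. The genes most like each isoform by the same measure were Mia3 (r = 0.94), Il12a (0.93) and Trap1 (0.91) for Myh4, Smtnl1, Myot and Ankrd2 (0.96 each) for Myh1, and Myoz2 (0.95), Slc38a10 (0.94) and Mavs (0.93) for Myh2. For Myh7 they were Tnnt1, the slow troponin T (0.89), Lrfn4 (0.77) and N6amt1 (0.76), and for Myh3 Nras (0.82), Mapk11 (0.81) and Qsox1 (0.78). The value for Tnnt1 and Myh7 draws on UBR4 mKO sample 4 of 6 months, where Tnnt1 was also at its highest.

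In bulk tissue, fewer cells of a type and less RNA per cell cannot be told apart, and markers of the other cells of the muscle are therefore given beside the isoforms. Of the 35 tested markers in the 9 lists, 15 were called at 6 months in UBR4 mKO muscles, 10 with age in WT and 8 with age in UBR4 mKO muscles, of which 5, 6 and 2 are the skeletal muscle markers themselves. Over all genes 44.9%, 25.1% and 6.29% were called, and Dunn's test called 5, 0 and 0 of these markers. All 4 tested leukocyte markers rose at 6 months, Cd68, a macrophage protein, by 2.77, but Adgre1 passed the filter only with the help of its highest group, 24-month UBR4 mKO, so the count without it is 3 of 3. The 7 summed to 13.9 to 20.5 TPM in WT and 46.8 to 160 TPM in UBR4 mKO samples. Fibroblast markers rose for 3 of 5 at 6 months, endothelial markers for 2 of 4 and tendon markers for 1 of 3 tested, and none of the tested adipocyte (3, of which Cidec also passed only with the help of 24-month UBR4 mKO), smooth muscle (4), Schwann cell (4) and satellite cell (1) markers was called. These calls depended on the scaling. After median-of-ratios scaling all 3 leukocyte markers besides Adgre1 still rose at 6 months, but 1 skeletal muscle, 1 fibroblast, 0 endothelial and 0 tendon markers did. In that fit 2 Schwann cell, 1 smooth muscle and 1 satellite cell markers fell. With age in WT, 2 leukocyte and 1 Schwann cell markers rose and 1 fibroblast marker fell, and in UBR4 mKO muscles 2 each of the endothelial, fibroblast and tendon markers fell. After median-of-ratios scaling 3 of 4 endothelial markers fell with age in each genotype. In WT 1 of the 4 tested leukocyte markers (Adgre1 among the 4) and 0 Schwann cell markers rose. Between the genotypes at 24 months, limma and Dunn's test each called 0 of the 35, and 11 had an unadjusted p under 0.05 by limma. The satellite cell markers summed to 8.16 to 12.7 TPM over all samples, most of it Cdh15, the only one tested. At 6 months Cdh15 had means of 9.05 TPM in WT and 7.81 TPM in UBR4 mKO muscles. Pax7 (0.586 and 1.055 TPM), Myf5 (0.603 and 1.27 TPM) and Calcr (0.112 and 0.268 TPM) were higher in UBR4 mKO muscles without overlap. So were 39.0% of all genes tested, and these low markers did not pass the filter. The part of these cells in the isoform values was not tested.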

How the data were processed

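Total RNA of 16 tibialis anterior muscles had been sequenced with 100-base paired-end reads. The authors trimmed and filtered the reads, aligned them to GRCm38 (mm10) and deposited TPM values per gene from CLC Genomics Workbench; the annotation release, strand setting and treatment of multiply matching reads are not given in the sources used here. Labels and methods name different library kits, and the study's text states fewer replicates per group than the 4 samples in the labels and the table, which were all used. TPM keeps no depth, so the precision of each value is known only from the spread between samples. Groups came from the sample titles.

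Values were taken as log2(TPM + 0.1), filtered at a mean of 1 TPM (10628 genes) and fitted in limma 3.58.1 (R 4.3.3) with 1 coefficient per group, a variance trend and Benjamini-Hochberg adjustment; no count model was used. This differs from the Kruskal-Wallis and Dunn tests of the study's methods, which were run as an alternative. Simulated data for the 6-month comparison (200 of 10628 genes changed by 1.5 on the log2 scale) gave 99.5% recovery with 3.87% false calls. The simulated noise was independent and the median gene did not shift, whereas 44.9% of genes were called in the real comparison. These rates therefore check the code and do not carry over to the calls reported here. Shares and single values were tested by exact permutation; the planned test of the shares' interaction (4900 assignments of ages within genotypes) also responds to age differences, so those values are given with their SE and no p. The alternatives were pseudocounts of 1 and 0.01, no filter or one of 5 TPM, 2 rescalings, 3 variance or weight settings, only the groups compared, a replicate block, Dunn's test, other denominators of the shares, and leaving out each sample; the Y-linked covariate and the omission of samples by Xist were chosen after seeing the data. Coding sequences were aligned with mafft 7.526. Sequences are from GENCODE vM21 and RefSeq; figures were drawn with matplotlib 3.10.9.

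The members and the gene lists were chosen with earlier results of these data known. Named are the members, Ubr4, of each list the called genes with the largest changes (up to 3 per comparison), the 3 genes most like each tested member (placeholder symbols left out), and genes overlapping a member. Outside this rule, linc-Myh was added after its values had been seen, and single markers are named where a count or sum rests on them. The replicate numbers were checked and did not pair the samples. No 2 samples were identical, and correlations within a group were 0.965 to 0.993.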

Additional observations from a re-analysis of the deposited data

Results flagged for a closer look

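In 4 of 56 groups of 4 samples checked, 1 sample lay far from the others by Dixon's test at the 95% level, where chance alone gives about 2.8. Of these, 3 values belong to UBR4 mKO sample 4 of 6 months, the sample with the most Xist and the least Y-linked RNA. Its Myh2 was at 972 TPM against 484 to 565 TPM in the other three, its Myh7 at 6.83 TPM against 0.440 to 0.790 TPM, and its Myh7 share at 0.0455% against 0.00336% to 0.00607%. The remaining value was the Myh4 share of UBR4 mKO sample 2 of 6 months, 60.6% against 54.6% to 55.5%. The part of the sex-linked RNAs in these values was not tested.

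The interaction of genotype and age was called by limma for some members and partners. The interaction was -2.20 for Myh3 on the log2 scale. Among the slow partners it was -1.46 for Tnni1 and -0.97 for Atp2a2, and among the fast partners -0.76 for Casq1, -0.72 for Mybpc2 and -0.62 for Mylpf. Among the developmental partners it was -3.85 for Actc1, -3.49 for Sln and -1.09 for Myl4. In the assembly list it was -2.64 for Myom3, -0.76 for Hsp90aa1 and -0.52 for Unc45b. In the denervation and regulator lists it was -2.65 for Myog and -2.65 for Ankrd1. The value of Runx1 was -2.26, but this gene passed the filter on low values only with the help of 24-month WT, its highest group. It is not counted as a called interaction, and Runx1 is read by its group levels only. The median gene had an interaction of -0.31, so the values nearest to it differ least from the bulk of genes. After median-of-ratios scaling the interaction was not called for Myh3 (-1.89), Tnni1 (-1.14), Casq1 (-0.42), Mybpc2 (-0.38), Mylpf (-0.29), Myl4 (-0.76), Hsp90aa1 (-0.43) and Unc45b (-0.19). Without mitochondrial genes it was not called for Myh3, Atp2a2 (-0.76), Casq1, Mybpc2, Mylpf, Myl4 and Unc45b.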

How the results depend on the processing

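Myh1 and Myh3 at 6 months kept their direction and their call in every setting that gave a value, except that Dunn's test did not call Myh1 (adjusted p = 0.106). The genotype differences of the Myh4 and Myh1 shares kept their direction in every setting, from -14.9 to -10.2 (Myh4) and 9.80 to 12.8 percentage points (Myh1) at 6 months and from -8.69 to -6.96 and 6.79 to 8.54 at 24 months with 1 sample left out. Their exact permutation p was then 0.0286 or 0.0571, the latter for Myh4 at 6 months without any 1 UBR4 mKO sample, for Myh4 at 24 months without UBR4 mKO sample 3 or 4, and for Myh1 at 24 months without UBR4 mKO sample 2, 3 or 4. Isoforms called numbered 1 at 6 months with a minimum of 5 TPM or with Dunn's test. With age in WT they numbered 1 without a filter, 0 with Dunn's test and 1 with the Y-linked covariate. With age in UBR4 mKO muscles they numbered 2 without a filter, with the covariate or without the samples over 5 TPM of Xist, and 0 with Dunn's test. The interaction was called for 0 without a filter, with a minimum of 5 TPM, after median-of-ratios scaling or without mitochondrial genes, and for 2 with sample weights. Leaving out 1 sample gave 2 to 3, 0 to 0, 1 to 3, 2 to 4 and 0 to 1 called isoforms in the 5 comparisons (genotype at 6 and at 24 months, age in WT and in UBR4 mKO, interaction). Shares with a p under 0.05 then numbered 2 to 3, 0 to 2, 0 to 5, 3 to 5 and 1 to 3, and with only Myh1, Myh2, Myh4 and Myh7 they numbered 3 with age in UBR4 mKO muscles and 0 for the interaction, whose p also responds to the age differences and is not read as a test of it.

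Directions turned for values that the main fit did not call. Myh4 at 6 months was -0.32 after median-of-ratios scaling, where it was called (limma adjusted p = 0.0332). It was -0.22 without mitochondrial genes and -0.073 with sample weights (-0.043 to 0.11 leaving out 1 sample), and its interaction was 0.024 after median-of-ratios scaling. Myh2 at 24 months was -0.024 with sample weights (-0.13 to 0.38). Myh7 at 6 months was -0.31 with sample weights and -0.52 without the samples over 5 TPM of Xist (-0.31 to 0.92), and at 24 months -0.23 to 0.27 leaving out 1 sample. With age in WT it was 0.63 with the covariate, against -0.59 without it, and its interaction was 0.33 with sample weights and 0.58 without those samples (-0.86 to 0.36), or 0.011 as a log ratio to the other isoforms. Shares that turned when 1 sample was left out were those of Myh7 (-0.00273 to 0.0113 at 6 months, -0.000202 to 0.00172 at 24 months), Myh8 with age in WT (-7.59e-06 to 0.00123) and Myh7b with age in UBR4 mKO muscles (-0.00019 to 0.0016), and the interaction of the Myh7 share ran from -0.0104 to 0.00363.

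The replicate numbers did not pair the samples: over 24 same-numbered pairs the correlation of deviations ran from -0.35 to 0.18, and 2 of 16 samples correlated best with their own number. Among the isoforms, a fit with the replicate number as a block called Myh2 at 6 months (adjusted p = 0.0444) and lost Myh1 with age in WT (0.0524) and Myh4 with age in UBR4 mKO muscles (0.0648); it called 4236, 38, 2023, 532 and 284 genes. Against 4767, 67, 2669, 669 and 500 genes called in all, median-of-ratios scaling called 1790, 97, 1038, 1197 and 211, the Y-linked covariate 3377, 27, 863, 463 and 323, leaving out the samples over 5 TPM of Xist 3019, 22, 3197, 275 and 243, and Dunn's test 2485, 0, 0 and 0 in the first 4 comparisons. Leaving out 1 sample gave 2737 to 6239, 8 to 66, 974 to 4973, 374 to 774 and 187 to 2491. The cause of these changes was not tested. Read depth is unknown, so the values near 1 TPM rest on an unknown number of reads.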
